A study of Mus musculus with 9 samples.

Results

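Chemokines are small secreted proteins that guide white blood cells, and 10 of their genes were followed here in mouse heart cell preparations with and without extra Firre, a long noncoding RNA. The 10 genes are Ccl5, Cxcl9, Cxcl10, Cxcl11, Ccl2, Ccl6, Ccl7, Ccl9, Cxcl1 and Cxcl12, taken by gene symbol from a count table of 55487 gene identifiers, in which each had a single row. They were chosen by their levels over the 3 groups in earlier results of these same libraries, so their own differences are given as a description and without p-values. RNA from isolated mouse cardiomyocytes, the contractile cells of the heart, was sequenced in 9 libraries, 3 to a group, after ribosomal RNA depletion per the protocol, although the molecule field of the labels says polyA RNA. The negative control ("control negative" in the titles, VC in the table) carried an AAV9 control vector, the Firre group ("LncFirre overexpresssion") an AAV9 vector for Firre, and the blank control ("control blank", NC) is named with no vector. AAV9 is a serotype of adeno-associated virus often used to deliver genes to the heart. The sources used here give no vector promoter, strain, age or number of animals, and the titles call the libraries biological replicates without saying whether they came from separate animals or cultures, so every p-value and SD measures only the spread between these libraries.

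Counts assigned to genes ran from 15591542 to 22697016 per library. Firre, the overexpressed gene, read 62.8, 69.6 and 62.5 counts per 1000000 (CPM) in its own group, where the negative control libraries read 32.5, 34.4 and 32.7 CPM and the blank control libraries 34.0, 37.1 and 30.2 CPM, so each Firre library lay above all 6 controls. Levels are CPM scaled with TMM factors, and fold changes are log2 values from an edgeR quasi-likelihood fit over 15633 genes. All 15 cardiomyocyte markers had counts in every group, at a summed level of 40079 to 42953 CPM over the 6 control libraries and 64673 to 67665 CPM in the Firre libraries. Markers of other cells were present beside them, the 14 fibroblast markers at 12309 to 12793 CPM in the controls and 5409 to 6044 CPM with Firre. In such mixed RNA, fewer cells of a type and less RNA per cell cannot be told apart.

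Chemokines fall into families named for the spacing of their first cysteines, CC (Ccl genes) and CXC (Cxcl genes), and each acts through G protein-coupled receptors on the cells it attracts. CXCL9, CXCL10 and CXCL11 share the receptor CXCR3 of activated T cells and are classic interferon-induced genes, and CCL5 (RANTES) binds CCR1 and CCR3 among others and is induced by interferon and virus sensing. CCL6 and CCL9 are rodent CC chemokines made largely by macrophages and other myeloid cells. CCL2 and CCL7 draw monocytes through CCR2, CXCL1 draws neutrophils through CXCR2, and CXCL12 is the stromal ligand of CXCR4. In the heart, fibroblasts, endothelial cells and resident macrophages are known sources of several of these ligands.

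In the controls Cxcl10 was low and Ccl5 was near the limit of detection, and both were abundant with Firre. The Firre libraries read 78.7, 90.9 and 100.2 CPM for Cxcl10, the negative control libraries 3.13, 1.32 and 1.02 CPM, and the blank control libraries 1.08, 0.828 and 1.20 CPM. All 3 Firre values lay far above the 6 controls, and negative control replicate 1 stood above the other 5 control libraries. The log2 fold change was 5.63 (SE 0.25) against the negative control and 6.45 (SE 0.28) against the blank control. Without negative control replicate 1 the first value was 6.25, a fold change more than 1.5 times as large. For Ccl5 the Firre libraries read 41.5, 40.8 and 46.6 CPM, the negative control libraries 0.462, 0.329 and 0.408 CPM, and the blank control libraries 0.510, 0.341 and 0.400 CPM. Here the 6 controls lay close together, at 7 to 9 counts each against 820 to 905 in the Firre libraries. Its log2 fold change was 6.73 (SE 0.16) against the negative control and 6.69 (SE 0.16) against the blank control.

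Cxcl9 and Cxcl11, the other ligands of CXCR3, were detected with Firre alone among these 9 libraries, at very low counts. Cxcl9 had 7, 4 and 4 counts in the Firre libraries and Cxcl11 had 14, 11 and 13, and both had 0 counts in all 6 controls. Against a floor of 3 counts over the group, Cxcl9 was at least 4.94-fold higher than in the negative control and at least 4.40-fold higher than in the blank control. Cxcl11 was at least 12.5-fold and 11.1-fold higher. These bounds cover counting error only, since reads without molecular identifiers are not independent molecules. Cxcl9 and Cxcl11 fell below the low-count filter and were not tested. The annotation lists Cxcl11 as a polymorphic pseudogene, a gene that is intact in some mouse strains and disrupted in the reference strain.

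**Figure D1:**
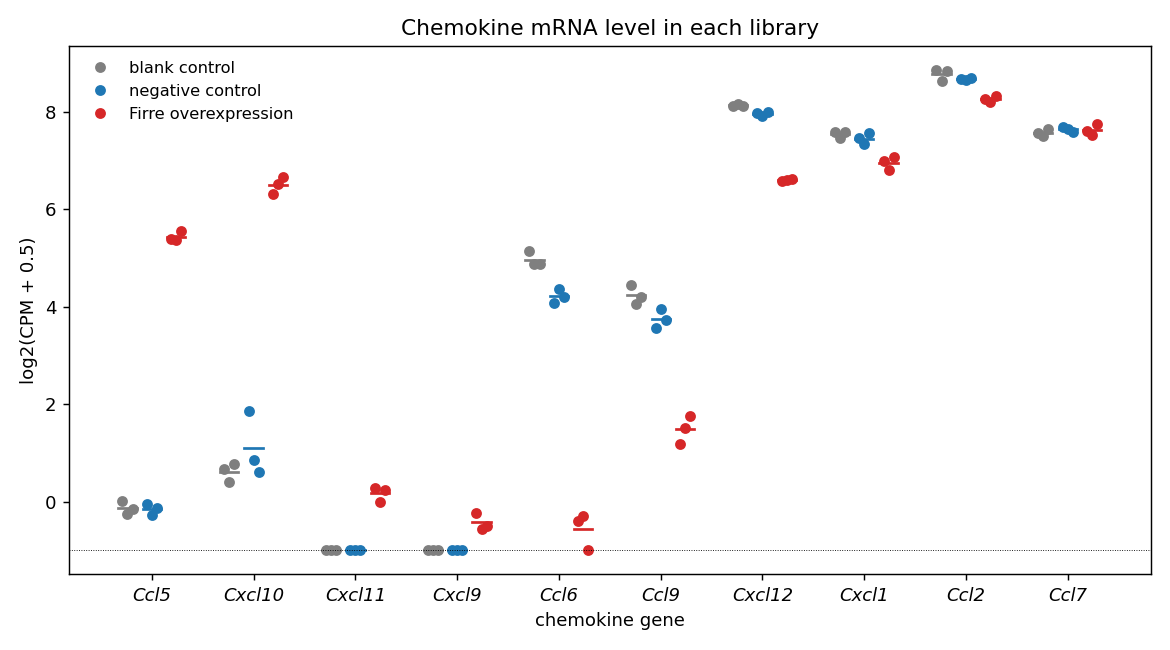
Level of each of the 10 chemokine genes, as log2(CPM + 0.5), in the blank control (grey), negative control (blue) and Firre (red) libraries, with 1 point per library and a bar at the group mean. The dotted line marks 0 counts; Cxcl9 and Cxcl11 sit on it in all 6 controls, and Ccl6 in 1 Firre library.

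The start of Cxcl10 carries letter patterns known from interferon and inflammatory control, and its sequence is shown for that reason beside that of Cxcl9, the neighbour that was far lower. Both windows are the 250 bases before the transcript start from RefSeq (GRCm38.p6), Cxcl10 at chr5:92348890-92349139, minus strand, and Cxcl9 at chr5:92328080-92328329, minus strand. Capitals mark matches to an interferon-stimulated response element (ISRE, searched as GAAANNGAAA) or an NF-kB site (searched as GGGANNTTCC), on either strand.
Cxcl10: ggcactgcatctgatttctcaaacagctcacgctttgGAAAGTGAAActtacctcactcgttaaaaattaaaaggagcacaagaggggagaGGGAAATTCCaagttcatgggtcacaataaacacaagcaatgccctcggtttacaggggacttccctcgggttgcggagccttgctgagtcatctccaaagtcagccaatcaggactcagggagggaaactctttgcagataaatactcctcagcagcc
Cxcl9: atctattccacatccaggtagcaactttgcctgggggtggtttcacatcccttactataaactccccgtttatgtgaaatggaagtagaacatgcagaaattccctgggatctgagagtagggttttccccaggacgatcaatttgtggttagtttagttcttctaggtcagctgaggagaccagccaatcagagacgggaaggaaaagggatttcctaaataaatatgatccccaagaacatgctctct
The Cxcl10 window held the ISRE match GAAAGTGAAA from 213 to 204 bases before the start and the NF-kB match GGGAAATTCC from 159 to 150 bases before it. The Cxcl9 window held neither. Over the 250 bases before 32817 start sites of the table, 2.97% held the ISRE letters and 1.21% the NF-kB letters. Of the 10 genes, 6 had an entry (Cxcl9, Cxcl10, Ccl6, Ccl9, Cxcl1 and Cxcl12); 1 of them held the ISRE letters, 2 the NF-kB letters, and none the gamma-interferon-activated site (GAS, TTCNNNGAA, 7.01% of all windows) or the PU.1 core (GAGGAA, 23.3%). A match describes the letters and does not show that a factor binds there. Ccl5, Cxcl11, Ccl2 and Ccl7 had no entry.

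Across the 9 libraries, the profiles closest to Cxcl10 and Ccl5 were those of antiviral genes. Likeness was measured as the root mean square difference of log2(CPM + 0.5), each gene centred on its own mean. The step between the controls and Firre weighs heavily in this measure, so near genes are largely those with a like fold change. Against the negative control the log2 fold change was 5.47 for Rsad2, 4.47 for Ifit1, 4.55 for Oasl1 and 4.28 for Ifit3b. The same limit holds for the nearest profiles given below. Shared control and a shared cell source were not tested. For Ccl5 the nearest genes were Rsad2, which encodes viperin (0.22), Ifit1 (0.62) and Oasl1 (0.63), and for Cxcl10 they were Rsad2 (0.35), Ifit1 (0.71) and Ifit3b (0.77). Rsad2 was at 103, 91.9 and 106 CPM in the Firre libraries and at 1.84 to 3.08 CPM in the 6 controls, with its highest control value in negative control replicate 1, the library in which Cxcl10 was also highest among controls. Ifit1 and Ifit3b have close copies in the Ifit family, and their values are uncertain, since reads may be shared between copies.

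Genes of interferon production and signalling were read from a list of 19, of which 14 were tested; 7 rose and 6 fell with Firre against the negative control, at a median log2 fold change of 0.13 where all genes had a median of 0.00. Of 15633 genes tested, edgeR called 27.5% higher and 28.4% lower in this comparison. The 6 that fell were the receptor genes Ifnar1 (-0.42), Ifnar2 (-0.20) and Ifngr1 (-0.55), the kinase genes Jak1 (-0.21) and Jak2 (-0.22), and Irf8 (-0.64). Factors that carry the type I interferon signal to the nucleus were among the 7 that rose. Stat2 rose by 1.93 (SE 0.06, adjusted p = 7.24e-22), Irf9 by 1.34 (SE 0.07, adjusted p = 7.35e-17) and Irf7, which drives interferon genes, by 2.36 (SE 0.05, adjusted p = 8.34e-26). Irf1, a factor that type II interferon induces, rose by less, 0.86 (SE 0.10, adjusted p = 2.10e-08), from 13.1, 10.998 and 10.6 CPM to 19.2, 21.6 and 22.3 CPM. Transcripts of the interferons themselves were scarce. Ifnb1, the gene of interferon beta, had 5, 1 and 3 counts in the Firre libraries and 0 in the 6 controls, at least 2.96-fold higher than in the negative control, and Ifng had 0 counts in all 9 libraries, which allows up to 3 counts in each.

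Ccl6 and Ccl9, the myeloid chemokines, went the other way. Negative control libraries read 16.3, 20.2 and 17.8 CPM for Ccl6, blank control libraries 34.6, 28.8 and 28.8 CPM, and Firre libraries 0.253, 0.316 and 0 CPM, from 5, 7 and 0 counts. The Firre libraries lay far below all 6 controls, and the negative control lay below the blank control. The log2 fold change was -6.48 (SE 0.25) against the negative control and -7.24 (SE 0.23) against the blank control. The Firre group held only 12 counts in all, and the first value was -7.07 without Firre replicate 2 and -5.95 without Firre replicate 3. For Ccl9 the negative control libraries read 11.3, 14.9 and 12.8 CPM, the blank control libraries 21.2, 16.1 and 17.9 CPM, and the Firre libraries 1.77, 2.35 and 2.87 CPM. It too lay below every control library, by less: -2.48 (SE 0.16) against the negative control and -2.98 (SE 0.16) against the blank control. The ratio of Ccl6 to Ccl9 counts was 1.39 ± 0.0406 in the negative control and 0.0925 ± 0.0802 with Firre (SD, n = 3), so these neighbouring genes were not lowered in proportion.

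Their upstream windows are shown because the 2 genes lie side by side and were low together, Ccl6 at chr11:83593088-83593337, minus strand, and Ccl9 at chr11:83578637-83578886, minus strand. None of the 4 patterns occurred in either, so no letters are in capitals.
Ccl6: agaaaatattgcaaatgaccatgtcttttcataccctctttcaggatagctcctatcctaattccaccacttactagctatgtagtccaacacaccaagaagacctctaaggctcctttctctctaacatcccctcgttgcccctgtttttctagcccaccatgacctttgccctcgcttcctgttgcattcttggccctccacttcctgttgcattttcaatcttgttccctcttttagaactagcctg
Ccl9: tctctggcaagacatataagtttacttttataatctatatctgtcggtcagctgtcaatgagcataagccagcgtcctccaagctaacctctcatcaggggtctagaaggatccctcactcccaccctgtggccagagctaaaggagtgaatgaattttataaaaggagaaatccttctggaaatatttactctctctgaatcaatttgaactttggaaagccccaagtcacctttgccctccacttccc
No match here says only that these letters are not in these windows.

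Markers of macrophages moved with Ccl6 and Ccl9. Of 17 macrophage markers 16 were tested, and against the negative control 14 fell with Firre and 2 did not pass (median log2 fold change -4.20). Over all genes tested, 28.4% were called lower and 27.5% higher. Adgre1, C1qa, C1qb, C1qc, Itgam, Fcgr1, Spi1, Tyrobp and Fcer1g lay under the filter level of 0.509 CPM in every Firre library. They were therefore tested through their control levels alone. The summed level of all 17 macrophage markers was 142 to 161 CPM in the blank control and 117 to 129 CPM in the negative control. With Firre that sum was 37.2 to 41.7 CPM, of which Mertk, described below, had a mean of 21.9 CPM. The complement gene C1qa had 46, 47 and 38 counts in the negative control and 0 in each of the 3 Firre libraries, and Spi1, the gene of the myeloid factor PU.1, had 146 counts over the negative control and 3 over the Firre group, which is 49.3 times as much at equal depth (95% counting interval 16.5 to 242). The 2 that did not pass were the phagocyte receptor gene Mertk, which is not confined to macrophages (0.14, SE 0.09, adjusted p = 0.177), and Lyve1 (0.21, SE 0.27, adjusted p = 0.534). The smallest falls were those of Csf1r, by 0.78 (SE 0.11), and Mrc1, by 1.57 (SE 0.25), so the macrophage markers did not fall alike. The part of these cells in the values of Ccl6 and Ccl9 was not tested. The profiles nearest to Ccl6 were those of the lysozyme gene Lyz2 (0.25), the macrophage elastase gene Mmp12 (0.46) and Il1rn, the gene of the interleukin 1 receptor antagonist (0.46). Their log2 fold changes against the negative control were -5.30, -5.22 and -5.07, large falls like that of Ccl6.

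Cxcl12, the stromal chemokine, was lower with Firre by an amount between those of Ccl9 and Cxcl1. Its libraries read 250, 241 and 254 CPM in the negative control, 276, 286 and 277 CPM in the blank control and 94.95, 96.7 and 97.7 CPM with Firre. The 3 groups did not overlap, and the spread within each was small. Its log2 fold change was -1.37 (SE 0.05) against the negative control and -1.54 (SE 0.05) against the blank control. The genes with the nearest profile were the endothelial adhesion gene Pecam1 (0.06), the kinase gene Sgk1 (0.06) and the cytokine receptor gene Csf2rb (0.07). Their log2 fold changes against the negative control were -1.34, -1.40 and -1.38, close to that of Cxcl12. Of 14 endothelial markers 12 fell and 2 did not pass (median -1.06), with a summed level of 1526 to 1541 CPM in negative control libraries and 661 to 688 CPM with Firre. All 14 fibroblast markers and 9 of 10 mural markers also fell, with 1 mural marker higher, at medians of -1.06 and -1.20. Beside these counts, 28.4% of all genes tested were called lower and 27.5% higher. No endothelial, fibroblast or mural marker was at 0 in any group, and the part of these cells in the level of Cxcl12 was not tested.

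Cxcl1, Ccl2 and Ccl7 led the 10 genes in level per length in each group, and of the 8 tested genes they had the smallest log2 fold changes with Firre. Cxcl1 read 175, 161 and 188 CPM in the negative control libraries, 192, 175 and 191 CPM in the blank control libraries and 126, 112 and 134 CPM with Firre, a log2 fold change of -0.50 (SE 0.06) against the negative control and -0.58 (SE 0.06) against the blank control. Each Firre library lay below the 6 controls. Ccl2 read 405, 403 and 412 CPM in the negative control libraries, 464, 395 and 455 CPM in the blank control libraries and 306, 296 and 319 CPM with Firre. It was lower in all 3 Firre libraries too, at -0.41 (SE 0.05) and -0.51 (SE 0.05). Ccl7, whose product shares the receptor CCR2 with that of Ccl2, read 205, 201 and 193 CPM in the negative control libraries, 190, 180 and 199 CPM in the blank control libraries and 195, 185 and 216 CPM with Firre. Its groups overlapped, at -0.01 (SE 0.05) and 0.07 (SE 0.05). The ratio of Ccl2 to Ccl7 counts therefore went from 2.04 ± 0.0860 in the negative control to 1.55 ± 0.0650 with Firre (SD, n = 3). The profile nearest to Ccl2 was that of Rhog, a small GTPase gene (0.03), then those of the actin-severing gene Cfl1 (0.05) and Tmem176b (0.05). Their log2 fold changes against the negative control were -0.43, -0.42 and -0.46, close to that of Ccl2.

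Cxcl1 held the other NF-kB match among these genes and is shown for it (chr5:90890995-90891244, plus strand; capitals mark the NF-kB letters).
Cxcl1: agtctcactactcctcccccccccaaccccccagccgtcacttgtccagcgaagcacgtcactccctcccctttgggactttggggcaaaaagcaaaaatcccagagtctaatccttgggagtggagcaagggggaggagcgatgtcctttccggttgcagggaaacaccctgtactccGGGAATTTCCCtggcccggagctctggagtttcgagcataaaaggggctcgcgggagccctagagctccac
The match GGGAATTTCC lies from 71 to 62 bases before the start and overlaps a second, GGAATTTCCC on the other strand, from 70 to 61. Of 23 genes of NF-kB signalling 22 were tested, and 3 rose and 10 fell with Firre (median -0.20), where 27.5% of all genes were called higher and 28.4% lower. Those that rose were the subunit gene Rel, by 0.65 (SE 0.07, adjusted p = 4.71e-09), and the signalling genes Ikbkg, by 0.27 (SE 0.06, adjusted p = 7.18e-04), and Traf2, by 0.26 (SE 0.08, adjusted p = 0.00618); these 3 were named after their values were seen. Nfkbia, the inhibitor gene that NF-kB itself induces, fell by 0.36 in log2 units (SE 0.07, adjusted p = 2.57e-05), and Rela, which encodes the p65 subunit, fell by 0.31 (SE 0.07, adjusted p = 1.86e-04). The cytokine gene Tnf fell by 2.01 (SE 0.38, adjusted p = 4.34e-05), from 33, 28 and 44 counts to 7, 5 and 14. Il1b was below the filter, with 20 counts over the negative control and 5 over the Firre group.

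Counted together, 8 of the 10 chemokine genes were tested in the fit. Against the negative control 2 were called higher and 5 lower and Ccl7 was not called, where edgeR called 56.0% of all genes, 27.5% higher and 28.4% lower. Against the blank control, a comparison with the same Firre libraries, the counts were also 2 and 5, with 56.3% of all genes called, 27.3% higher and 28.9% lower. Libraries did not overlap between Firre and the negative control for 9 of the 10 genes, 4 higher and 5 lower, and for 62.4% of all genes tested, 30.8% higher and 31.5% lower. Against the blank control the member counts were the same, with 60.5% of all genes not overlapping, 29.5% higher and 31.0% lower. The members were listed with these differences known, so the counts are a description. Ccl5 passed the filter through the Firre libraries, since its control levels lay around the filter level of 0.509 CPM, and so had to differ. Ccl6 passed it through the control libraries, since none of its Firre libraries reached that level, and so had to differ too. Of the other genes named below, Ccl12, Cxcl14 and Ccr1 also lay under that level in every Firre library and passed through the controls.

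**Figure D2:**
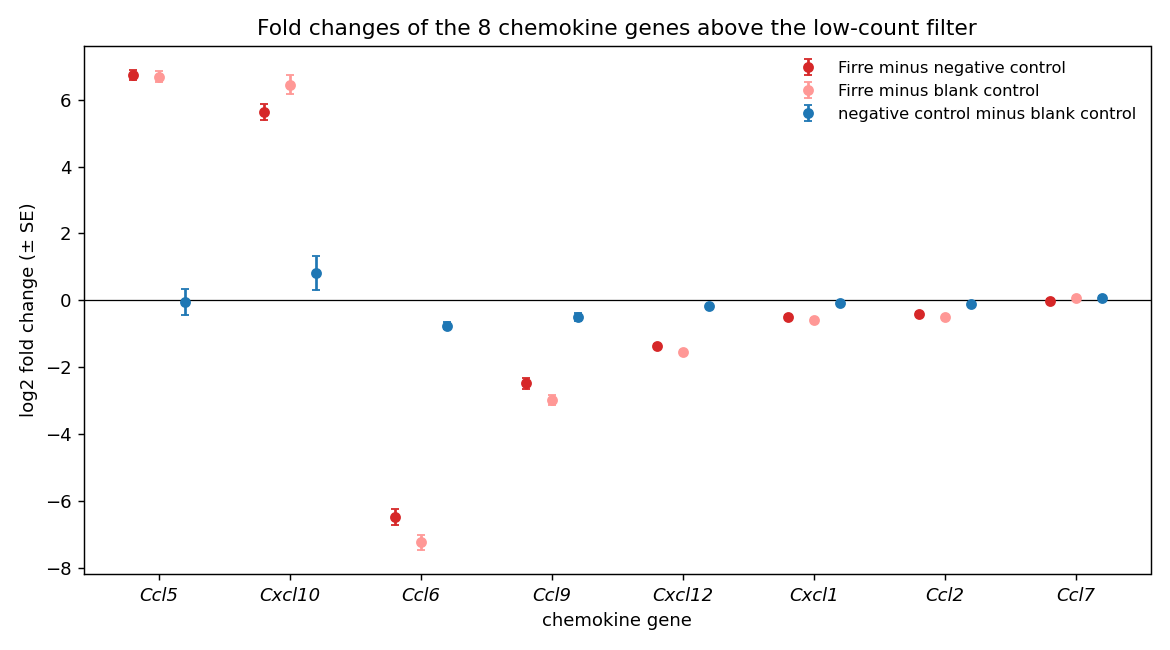
Log2 fold changes with SE of the 8 chemokine genes above the low-count filter, for Firre minus negative control (dark red), Firre minus blank control (light red) and negative minus blank control (blue). Against the negative and blank controls the values run from 6.73 and 6.69 for Ccl5 to -6.48 and -7.24 for Ccl6, with Cxcl10 at 5.63 and 6.45, and only Ccl7 lies near 0 in all 3 comparisons.

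Set per length, as CPM per kilobase of merged exons (RPKM), the same ligands led in every group. In the negative control the order was Ccl2 at 357 ± 4.46, Ccl7 at 249 ± 7.64, Cxcl1 at 93.2 ± 7.04, Cxcl12 at 30.4 ± 0.846, Ccl6 at 10.1 ± 1.09, Ccl9 at 4.27 ± 0.587, Cxcl10 at 0.809 ± 0.508 and Ccl5 at 0.416 ± 0.0697 RPKM (SD, n = 3), with overlapping replicates for Cxcl10 and Ccl5 alone among these neighbours. The blank control had the same order. With Firre the order was Ccl2 at 269.8 ± 10.1, Ccl7 at 248 ± 19.7, Cxcl1 at 66.1 ± 5.93, Ccl5 at 44.7 ± 3.29, Cxcl10 at 39.9 ± 4.79 and Cxcl12 at 11.8 ± 0.168 RPKM, followed by Ccl9 at 0.765 ± 0.181 and by Cxcl11, Ccl6 and Cxcl9 at 0.165 or less. Replicates overlapped between Ccl2 and Ccl7, between Ccl5 and Cxcl10, and along the last 3. On this scale Ccl5 and Cxcl10 came to stand above Cxcl12 and below Cxcl1 with Firre, while in CPM, not divided by length, Cxcl12 at a mean of 96.4 stayed above Cxcl10 at 89.9 and Ccl5 at 43.0.

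Over 40 chemokine ligand genes of the table, the summed level was 899 ± 9.57 RPKM in the negative control, 959 ± 57.8 in the blank control and 796 ± 52.6 with Firre. Ccl5 and Cxcl10 together made up 0.136% ± 0.0611 of that sum in the negative control, 0.0929% ± 0.0108 in the blank control and 10.6% ± 0.559 with Firre (SD, n = 3). Ccl6 and Ccl9 went from 1.60% ± 0.204 in the negative control to 0.110% ± 0.0168. Ccl2, Ccl7, Cxcl1 and Cxcl12 kept the bulk, 81.2% ± 0.193 in the negative control and 74.8% ± 0.774 with Firre. These are shares of mRNA and do not measure secreted protein.

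**Figure D3:**
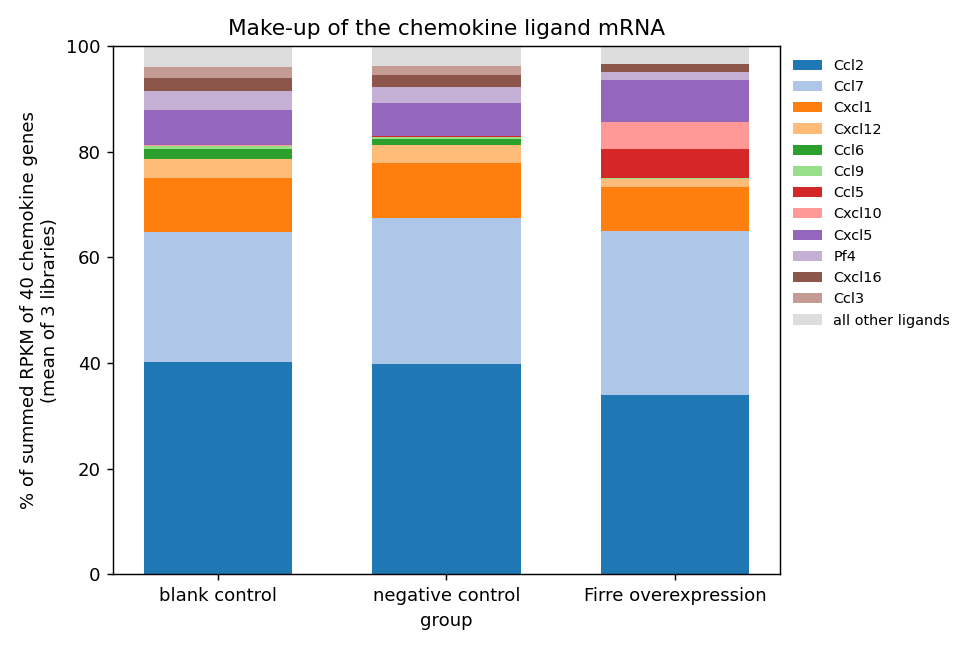
Share of each ligand in the summed RPKM of 40 chemokine genes, as the mean of 3 libraries in each group; bars reach 100%. Ccl5 and Cxcl10 (red and pink) take 10.6% together with Firre and 0.136% in the negative control, while Ccl2 and Ccl7 (blues) lead in each group.

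In the genome these genes lie in blocks, and neighbours did not share a direction throughout (coordinates in mm10, GENCODE M21). On the minus strand of chromosome 11, Ccl5 (chr11:83525778-83530518) is followed after 42400 bases by Ccl9 (chr11:83572919-83578636) and after another 9245 bases by Ccl6 (chr11:83587882-83593087), so Ccl5, with the largest positive log2 fold change of the 8 tested, lies beside Ccl9 and Ccl6, with the most negative ones. Beyond them, Ccl3 fell by 4.08 (SE 0.19, adjusted p = 2.04e-17) and Ccl4 fell by 2.005 (SE 0.30, adjusted p = 1.49e-06); both encode inflammatory chemokines of macrophages. Ccl2 (chr11:82035571-82037453) and Ccl7 (chr11:82045712-82047525) lie 8258 bases apart on the plus strand in another block with Ccl12, a CCR2 ligand, which had 66 counts over the negative control and 1 over the Firre group (adjusted p = 4.99e-07), and Ccl8, which did not pass (0.81, SE 0.53, adjusted p = 0.199). On chromosome 5, Cxcl9 (chr5:92321347-92328079), Cxcl10 (chr5:92346638-92348889) and Cxcl11 (chr5:92359544-92365485) form a block of their own on the minus strand, and all 3 were higher with Firre. Cxcl1 (chr5:90891241-90893115, plus strand) lies in a separate block with Cxcl5, which did not pass (0.16, SE 0.08, adjusted p = 0.0964), and the platelet factor gene Pf4, which fell by 1.20 (SE 0.10, adjusted p = 8.17e-12). Cxcl12 stands alone (chr6:117168535-117181367, plus strand).

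**Figure D4:**
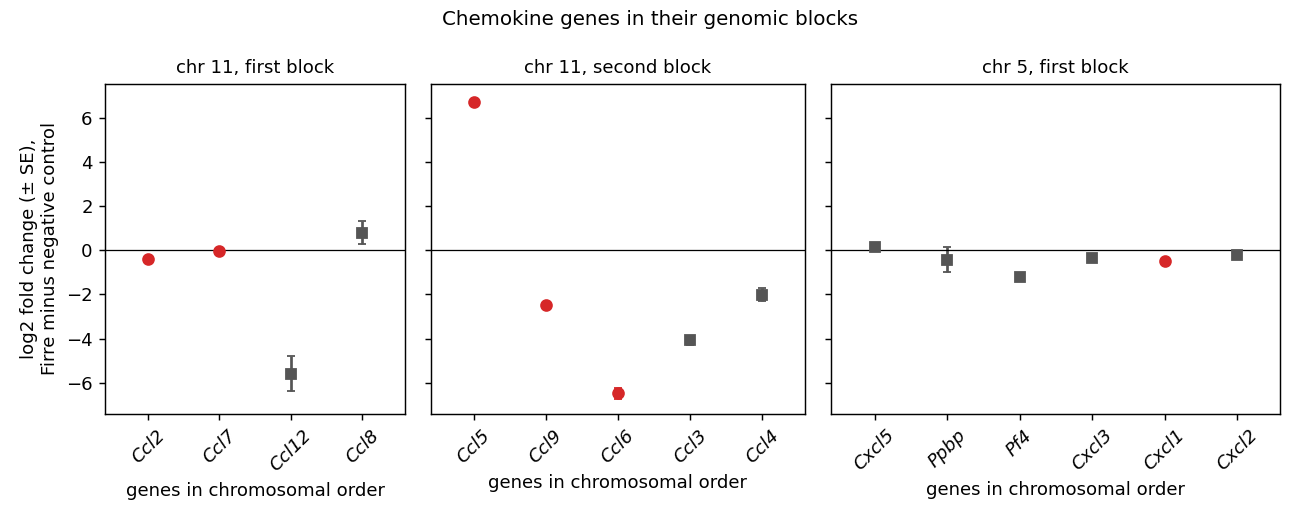
Log2 fold change with SE, Firre minus negative control, of the tested chemokine genes in 3 genomic blocks, in chromosomal order; red circles are genes of the 10 and grey squares other ligands. In the second block of chromosome 11, Ccl5 at 6.73 stands beside Ccl9 at -2.48 and Ccl6 at -6.48.

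Few genes were called between the 2 control groups, and Ccl6 was among them. Of all 15633 genes, edgeR called 9 (0.0576%), 0.00640% higher and 0.0512% lower in the negative control; 1 of the 8 tested chemokine genes, Ccl6, was one of them, at -0.76 (SE 0.11). The call was lost without blank control replicate 1 and without negative control replicate 1, with values of -0.66 and -0.69. Ccl9 lay at -0.49 (SE 0.12) and was called without blank control replicate 2, at -0.58. Cxcl12 lay at -0.17 (SE 0.05). Ccl6, Ccl9 and Cxcl12 were the 3 of the 10 genes whose control groups did not overlap, all lower in the negative control, as was the case for 13.1% of all genes tested, 6.21% higher and 6.87% lower. The count over all genes was itself unstable, at 0 without blank control replicate 1, 55 without blank control replicate 2, 3, 4 and 15 without negative control replicates 1, 2 and 3, 4 without Firre replicate 3, and 43 by DESeq2. Cxcl10 was at 0.81 (SE 0.51), a value that was 0.19 without negative control replicate 1. Of the 16 macrophage markers tested, edgeR called 0 in this comparison, 7 had an unadjusted p under 0.05 and the median was -0.43; DESeq2 gave none of them an adjusted p. Their part in the lower Ccl6 was not tested. Ccl5, Ccl2, Ccl7 and Cxcl1 had values from -0.11 to 0.08.

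Beyond the 10 genes, more of the tested chemokine ligands were called lower with Firre than higher. Of 30 other ligand genes, 17 were tested; 9 fell, 1 rose and 7 did not pass against the negative control (median -0.42), beside 28.4% of all genes called lower and 27.5% higher. The count that fell was 7 with a minimum count of 30 and 8 by DESeq2. The count that rose was 2 when only these groups were fitted, 3 without negative control replicate 1 and without Firre replicate 2, and 2 without negative control replicate 2, Firre replicate 1 or Firre replicate 3. Besides Ccl12, Ccl3 and Ccl4, the largest falls included Cxcl14, a chemokine made by epithelial and stromal cells, which fell by 4.06 (SE 0.58, adjusted p = 5.00e-07) from 24, 27 and 21 counts to 2, 1 and 1. The 1 that rose was Ccl27a, best known from skin, by 0.79 (SE 0.18, adjusted p = 5.33e-04), from 2.57, 2.49 and 3.16 CPM to 4.85, 4.601 and 4.80 CPM. The near-identical copies of Ccl19 and Ccl21 were at 0 in all libraries, and their levels are uncertain, since reads shared between copies may not have been counted.

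The receptors through which these ligands act were scarce. Of 24 receptor genes 8 were tested; 5 fell, 1 rose and 2 did not pass with Firre (median -1.45), beside the same 28.4% and 27.5% over all genes. The count that fell was 3 with a minimum count of 30 and when only these groups were fitted. Cxcr3, the receptor of Cxcl9, Cxcl10 and Cxcl11, had 1 count over the 9 libraries, as did Ccr2, the receptor of Ccl2 and Ccl7; Ccr3 had 4 and Cxcr2 had 15. Ccr1, which binds the products of Ccl5, Ccl6, Ccl7 and Ccl9, fell by 3.96 (SE 0.37, adjusted p = 1.86e-10), from 54, 74 and 47 counts in the negative control to 7, 2 and 2. Lymphocyte genes were near 0 in every group, the summed level of 17 markers being 1.13 to 1.94 CPM over the 9 libraries, with Cd3d, Cd4 and Cd8a at 0 in all of them.

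The 2 receptors named next hold or clear chemokines. Ackr1, which binds many inflammatory chemokines on venous endothelium, fell by 1.75 (SE 0.12, adjusted p = 1.06e-13), from 16.9, 18.5 and 17.9 CPM to 5.06, 5.10 and 5.79 CPM. Ackr3, which takes up CXCL12 and CXCL11, fell by 1.28 (SE 0.12, adjusted p = 1.44e-10), from 13.7, 12.1 and 13.3 CPM to 5.06, 5.73 and 5.27 CPM. Cxcr4, the signalling receptor of CXCL12, was at 0.887 to 1.90 CPM over the negative control and Firre libraries and did not pass (-0.49, SE 0.34, adjusted p = 0.234). Ccrl2, a nonsignalling relative of the receptors, was the 1 that rose, by 1.32 (SE 0.22, adjusted p = 6.27e-06), from 1.54, 1.504 and 1.78 CPM to 4.45, 3.65 and 4.02 CPM. All p-values are from edgeR's quasi-likelihood test with Benjamini-Hochberg adjustment over all genes tested.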

How the data were processed

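RNA of 9 libraries was sequenced as paired-end reads from directional libraries, per the labels' protocols. The authors deposited whole-number read counts for each Ensembl identifier, not normalized; FastQC, Trimmomatic, STAR, featureCounts and the build mm10 are named per the submitters' processing notes, with no versions or settings, and whether counting used strand is not stated. The 5 closing lines of unassigned reads (16.3% to 17.4% of counts) were left out. Symbols, coordinates and merged exon lengths came from GENCODE M21 (55227 of 55487 identifiers matched).

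The test was edgeR 4.0.16 (R 4.3.3), quasi-likelihood with a robust prior, TMM scaling and filterByExpr (minimum count 10, minimum total 15), with all 9 libraries in a single fit, 6 residual degrees of freedom and Benjamini-Hochberg adjustment at 0.05. SE was taken from the fold change and its F statistic. The code was checked on simulated counts. Replicates differed by more than sampling noise (chi-square per degree of freedom 3.27 to 7.39).

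The 10 genes and all lists were chosen with earlier results of these data known. Named besides the 10 genes were the other ligands with the largest called changes at 1 CPM or more (4 per direction), the receptors with the smallest p (3 per direction) and the known receptors of the 10, fixed interferon and NF-kB genes, and the 3 nearest profiles of 5 of the genes. Alternatives were library totals, RLE size factors, DESeq2 1.42.0, 2 other filters, only the groups compared, a replicate block and each library left out. Some genes that this rule names are not reported here.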

Additional observations from a re-analysis of the deposited data

How the results depend on the processing

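Results were recomputed under 16 alternatives; the Ccl5 difference between the controls gave no value when only those groups were fitted. Of the counts, 184 recomputed values stayed within 1.5 times the reported one and 24 did not; of the fold changes of the 8 tested genes, 377 moved by less than the replicate spread and 6 by more, and no called fold change changed sign. Without a low-count filter, 4 of the 10 genes were called higher with Firre against each control, the added ones being Cxcl9 and Cxcl11, 2 were called lower in the negative than in the blank control, 2 other ligands were called higher, and 98 genes were called between the controls. DESeq2 called 4 of the 10 genes higher against the blank control and 43 genes between the controls; among the 10 genes it called Cxcl12 there and gave no adjusted p for Ccl6. Fitting only the groups compared gave 2 other ligands higher and 3 receptors lower, and a minimum count of 30 also gave 3 receptors lower. Leaving out 1 library at a time gave 0 to 2 of the 10 genes lower between the controls, 1 to 3 other ligands higher and 0 to 55 genes called between the controls. The cause of these shifts was not tested, apart from the filter, which sets which genes enter the test.

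Same-numbered libraries did not deviate together over the genes tested (correlations -0.040 to 0.028). This cannot settle whether they shared an isolation or a day, which the labels do not state, and the main fit did not pair them. With the replicate number as a block, 8592, 8586 and 7 genes were called for Firre against negative control, Firre against blank control and negative against blank control, and the member counts were 2 higher and 5 lower, 2 and 5, and 0 and 1. Depth limits Cxcl9, Cxcl11, Ifnb1 and most receptors, which rest on few counts.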

Other observations

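Besides Ccl6, edgeR called 8 genes between the negative and blank controls. They are named here after their values were seen, and no theme was tested among them. Irf7, which drives interferon genes, was at -0.31 (SE 0.05, adjusted p = 0.0042), the antiviral membrane protein gene Ifitm3 at -0.28 (SE 0.06, adjusted p = 0.0422) and Il1rn, whose profile over the 9 libraries was among the nearest to Ccl6, at -0.55 (SE 0.11, adjusted p = 0.0422), each lower in the negative control. The endothelial gene Vwf was lower too, at -0.39 (SE 0.07, adjusted p = 0.0360), as were Adam8 at -0.55, Gm4617 at -0.64 and Ahsg at -0.42, while Cmya5 was higher at 0.24. The number of genes called ranged from 0 to 55 when single libraries were left out.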
